A study of Mus musculus with 12 samples.

Results

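Histone H3 was followed in mouse spleen through 15 array probes whose sequence encodes a stretch of the protein. They were chosen by sequence and by a measured value, out of 35852 mouse probes. A probe was taken if one of its sense reading frames gave 12 or more residues identical to human histone H3.1, aligned without gaps, and if Feature Extraction, the scanner software, had marked its spleen signal as well above background on 4 or more of 12 arrays. All 15 sequence matches met the signal criterion, on 12 of 12 arrays in both dye channels, so that criterion removed none. Because brightness was part of the choice, nothing below rests on the probes being bright. The files repeat the probe ID where a gene name would stand and list no position in the genome, so each probe is named by its ID.

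The series compared spleen RNA of C57BL6 mice in 3 groups of 4 samples, 1 sample per array: Trex1 V235fs KI, Trex1 D272fs KI, and control. TREX1 is a DNA exonuclease. Both knock-ins were made with the human gene and are conditional, per the labels, which tie V235fs to RVCL, a vascular disease of retina and brain, and D272fs to a case of lupus (SLE). The promoter or Cre that turns the alleles on, the age of the mice and whether control mice carried a silent knock-in allele are not given in the sources used here. Every array carried the spleen sample in the Cy3 channel and the same universal reference RNA in the Cy5 channel, so dyes were never swapped. Values are log2 ratios of spleen over reference unless stated otherwise, so 0 means equal signal in both channels. Whether the 4 samples of a group were separate mice is not stated in the labels. The p-values therefore measure only the spread between samples within groups, estimated over all 3 groups together, and that spread may be technical.

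Histone H3 is one of the core histones around which nuclear DNA is wrapped. Dividing cells make the replication-dependent forms, H3.1 and H3.2, during S phase from clustered genes whose mRNAs usually end in a stem-loop rather than a poly(A) tail, while H3.3 is made from polyadenylated mRNA throughout the cell cycle and replaces H3 outside replication. Spleen holds dividing lymphocytes and, in mice, dividing red cell precursors, and is therefore a tissue in which replication-dependent histone mRNA is made. The mouse gene table (RefSeq, GRCm38.p6) lists 12 H3c genes for these forms, 9 on chromosome 13 and 3 on chromosome 3, many of them near-identical in coding sequence, so 1 probe can bind the mRNA of several. How reverse transcription was primed is not stated in the labels, so the share of tailless mRNA that was labelled is not known.

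The probes fell into 3 sets by what they encode. The set boundaries were drawn from the sequences, after earlier values had been seen. Residues are numbered from the first one after the start methionine, substitutions are given with the H3.1 residue first, and each sequence is the sense strand from the deposited probe table, 5′ to 3′. The first set has 3 probes that read residues 90 to 109, with 75.0% to 80.0% of codons ending in G or C. They are the only ones that cover residues where H3.1, H3.2 and H3.3 differ and that fit one of these forms. All 3 carry the methionine at residue 90 that H3.1 and H3.2 share and H3.3 lacks. M400008864 and M400008878 have the cysteine of H3.1 at residue 96, and M400008875 has the serine of H3.2 there (C96S, its codon in capitals). Counting bases from 1 at the 5′ end, M400008878 differs from M400008864 by C33T alone, a silent change, whereas M400008875 differs from M400008864 by C18G, T19A, T21C and C33T. Whether probes this alike bind separate mRNAs was not tested. The 3 are shown because the largest changes of any H3 probe were in this set.

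M400008864: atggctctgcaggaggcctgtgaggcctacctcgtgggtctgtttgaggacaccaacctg
M400008878: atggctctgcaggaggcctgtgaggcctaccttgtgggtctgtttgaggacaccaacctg
M400008875: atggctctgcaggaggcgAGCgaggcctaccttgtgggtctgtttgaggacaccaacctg

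The second set has 5 probes that begin in the last residues of the first set, reach as far as residue 130, and have 84.2% to 94.7% of codons ending in G or C. No residue in that stretch separates H3.1, H3.2 and H3.3, so their form is undetermined. M400012462 and M400012464 have the same sequence on separate spots, and M400012463 overlaps them with identical bases. M400006309 and M400011311 differ by C19G, which turns residue 112 from isoleucine to methionine (I112M, in capitals). Shown are the sequences of the overlapping probes whose values ran against those of the first set.

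M400006309: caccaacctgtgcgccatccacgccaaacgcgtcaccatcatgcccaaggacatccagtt
M400011311: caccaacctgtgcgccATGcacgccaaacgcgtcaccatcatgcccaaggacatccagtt
M400012462: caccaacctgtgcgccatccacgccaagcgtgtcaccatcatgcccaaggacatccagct
M400012463: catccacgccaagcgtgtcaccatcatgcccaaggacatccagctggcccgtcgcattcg

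The third set has 7 probes in which 31.6% to 47.4% of codons end in G or C, called AT-ending here. M400008915, on residues 37 to 55, encodes H3 without a substitution. The other 6 carry 2 to 6 substitutions each, all but 1 of them found in none of H3.1, H3.2 and H3.3, so their translation is not that of a standard H3 protein. The gene table also lists the pseudogenes H3f3a-ps1 and H3f3a-ps2, and whether any of these 6 probes, the called M400005955 included, reads a pseudogene copy was not analysed here. M400005955, on residues 13 to 31, is the only probe with an H3.3 residue, the serine at position 31 (A31S), but it also carries P16S, Q19E, A21P, S28R and P30S, and its label as H3.3 rests on 1 residue. M400006819 has K14N and A15S, and M400005982 has R49H and L60F. The other 3 are M400007787 with 6 substitutions, M400008052 with I124T, R128G and R129Y, and M400008077 with 5. Codons that differ in the encoded residue are in capitals below, for the unsubstituted probe, the probe with the H3.3 residue and a probe that overlaps the second set.

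M400008915: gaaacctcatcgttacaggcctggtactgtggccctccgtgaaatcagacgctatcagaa
M400005955: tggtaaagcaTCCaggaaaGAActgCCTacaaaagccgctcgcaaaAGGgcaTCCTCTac
M400008052: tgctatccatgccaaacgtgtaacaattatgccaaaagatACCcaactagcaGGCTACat

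Both the division into replication-dependent and variant H3 and the name H3 itself therefore hold only in part. By residues, 3 probes are of the replication-dependent type, 8 are undetermined, and 4 belong to neither and were classed as other variants. No H3.3 mRNA can be named from these probes. The residue threshold cut close to the third set: M400005955 and M400007787 were just inside with 13 identical residues, and M400006060, M400011202 and M400012838 were just outside with 11. M400012838 stood at 1.16 to 1.60 in control, 0.67 to 0.93 in V235fs and 0.81 to 1.29 in D272fs, and M400006060 at 1.19 to 1.51, 0.37 to 0.81 and 0.65 to 1.23. M400011202, well above background on 7 arrays, stood at −0.32 to −0.14 in control, −1.04 to −0.32 in V235fs and −0.77 to −0.01 in D272fs.

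**Figure D1:**
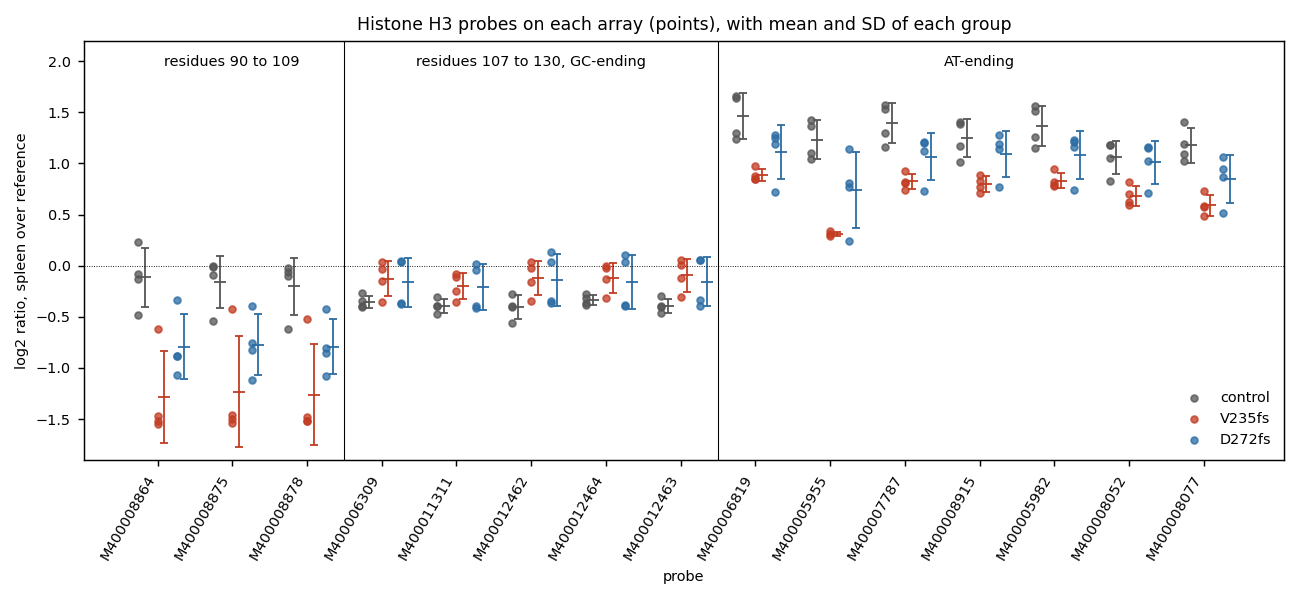
Log2 ratio of spleen over reference (vertical axis) of each H3 probe (horizontal axis) on every array, with the mean and SD of each group beside the points (n = 4, or 3 for M400005955 in V235fs). The 7 AT-ending probes stand lower in all V235fs arrays than in any control array, the 3 probes on residues 90 to 109 are low on 3 of 4 V235fs arrays, and the 5 GC-ending probes next to them overlap between groups.

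V235fs was compared with control first. Of the 15 H3 probes, 2 were called lower and 0 higher. M400008864, whose sequence encodes H3.1, was 2.25-fold lower (log2 change −1.17, SE 0.23, limma adjusted p = 0.0435). M400005955, with 1 H3.3 residue, was 1.89-fold lower (log2 change −0.92, SE 0.18, limma adjusted p = 0.0457). Over all 26502 probes tested 0.849% were called, 131 higher and 94 lower. Outside the residue threshold, M400006060 with 11 identical residues was called lower as well (log2 change −0.73, limma adjusted p = 0.0429). So was M400009940 with 9 (log2 change −0.74, limma adjusted p = 0.0457). The other tested probes with 9 to 11 were not, M400012838 and M400011202 included. The count of H3 calls thus depends on that threshold. An unadjusted p under 0.05 was reached by 12 of the 15 and by 19.5% of all probes tested. The fitted change was below 0 for all 10 probes of the first and the third set, and above 0 for all 5 of the second, which median centring turned below 0. These probes share sequence and are no more than a few independent measurements.

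Both calls rest on the spread of single arrays and on the setting. Leaving out 1 array changed the number of called H3 probes, given here with the share of all probes called in brackets. It was 0 without V235fs replicate 2, 3 or 4, D272fs replicate 1 or 2, or control replicate 2, 3 or 4 (0.0645% to 0.61%). It was 1 without control replicate 1 (0.536%) and 3 without D272fs replicate 4 (1.06%). It was 5 without V235fs replicate 1 (2.69%) and 10 without D272fs replicate 3 (5.29%). All V235fs arrays lay on 1 slide, all D272fs arrays on another and the controls on 3 further ones, and no control array was scanned on the day of the knock-in arrays, so the effects of genotype, slide and day cannot be told apart. With the slide, or the scan day, taken as a random block 0 H3 probes were called, against 0.189% and 0.0981% of all probes tested. In each, 11 H3 probes reached an unadjusted p under 0.05. The share of all probes that did so under these blocks is not given here, and was 19.5% without a block. The limma adjusted p of M400008864 was 0.084 and 0.106. The normexp fit put the Cy3 background of D272fs replicate 3 at −392, where its negative control spots averaged 21.9, and with a background taken from negative control spots 9 H3 probes were called, all lower, against 8.24% of all probes tested.

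The 3 probes on residues 90 to 109 had the largest fitted changes of the 15, and 1 of them was called. M400008864 stood at −0.48, −0.08, −0.13 and 0.23 on control replicates 1 to 4, and at −0.61, −1.55, −1.47 and −1.52 on V235fs replicates 1 to 4. Every V235fs array was below every control array, though replicate 1 lay close to control replicate 1. M400008878, the other H3.1 probe, stood at −0.62, −0.02, −0.10 and −0.06 in control and at −0.52, −1.51, −1.48 and −1.52 in V235fs. Here V235fs replicate 1 was above control replicate 1, so the groups overlapped, and the log2 change of −1.06 (SE 0.23) was not called (limma adjusted p = 0.0542). M400008875, the H3.2 probe, stood at −0.54, −0.00, −0.09 and −0.02 in control and at −0.42, −1.54, −1.498 and −1.46 in V235fs, with the same overlap and a change of −1.07 (SE 0.24, limma adjusted p = 0.0609).

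In 1 of the 4 V235fs samples the first set was thus near the lowest control, replicate 1, and below the other 3 controls. Its mean was −0.52 on V235fs replicate 1, which lay at slide position 4, and −1.48 to −1.53 on the other 3, at positions 1 to 3. Of the controls, replicates 1, 2 and 4 lay at position 4 as well, with set means of −0.55, −0.03 and 0.05. D272fs replicate 1 at the same position had −0.85. Without V235fs replicate 1 the median change of the set was −1.34, and with position as a fixed block −0.91, against −1.07 in the fit of all arrays; the part of position in the low value was not tested further. With a background from negative control spots all 3 probes were called (limma adjusted p 0.0167 to 0.0296), but with the slide or the scan day as a random block besides, 0 H3 probes were (lowest limma adjusted p 0.118 and 0.0727).

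The 5 GC-ending probes of the second set encode the next stretch of H3, in a form that is undetermined, and did not show that decrease. Whether they bind the same mRNAs as the first set was not tested. M400006309 stood at −0.27, −0.35, −0.40 and −0.40 in control and at −0.35, −0.15, −0.04 and 0.03 in V235fs. On V235fs replicate 1 it was within the control range, and the other 3 arrays were above it. Its log2 change was 0.23 (SE 0.12, limma adjusted p = 0.321). M400012463 had the largest change of the set, 0.30 (SE 0.12, limma adjusted p = 0.195), and M400011311 the smallest, 0.19 (SE 0.11, limma adjusted p = 0.368). Loess moved these bright probes upwards against the others: under median centring without loess their median change was −0.34 in place of 0.23, while the median of all probes moved to −0.15, so their direction depended on the normalisation. The identical probes M400012462 and M400012464 differed by 0.02 on average over the 12 arrays (SD of the difference 0.07, largest 0.24), which gives the spread between spots of 1 sequence.

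All 7 AT-ending probes were lower in every measured V235fs array than in any control array, and 14.2% of all probes tested had groups without overlap, in either direction. The probe without a substitution, M400008915, stood at 1.39, 1.17, 1.02 and 1.41 in control and at 0.88, 0.83, 0.71 and 0.77 in V235fs. Its change of −0.45 (SE 0.12) was not called (limma adjusted p = 0.088). M400005955 stood at 1.42, 1.04, 1.097 and 1.36 in control and at 0.34, 0.31 and 0.29 on V235fs replicates 1, 2 and 4, its spot on replicate 3 having been marked as an outlier and left out. That is the widest gap between the groups in this set. In both channels its signal varied more than its ratio, with normalised log2 values in the reference channel between 9.51 and 12.44. The other 5 had changes of −0.38 (M400008052, SE 0.11, limma adjusted p = 0.113) to −0.58 (M400008077, SE 0.12, limma adjusted p = 0.0506). The set's median change was −0.57, against 0.00 over all probes tested.

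**Figure D2:**
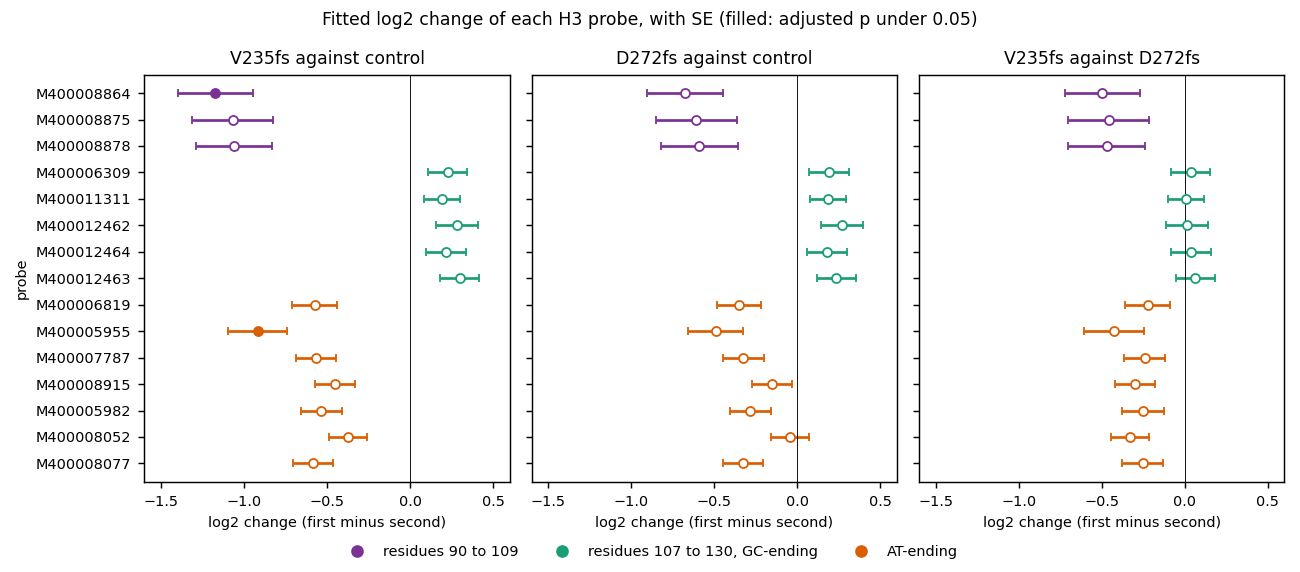
Fitted log2 change (horizontal axis, with SE) of each H3 probe in the 3 comparisons, filled where the limma adjusted p was under 0.05. In V235fs against control M400008864 and M400005955 are filled at −1.17 and −0.92, the 5 GC-ending probes lie between 0.19 and 0.30 (below 0 under median centring), and no probe is filled in the other comparisons.

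D272fs was compared with the same control arrays next. No H3 probe was called by limma (0 of 15), against 0.0755% of all probes tested, and 8 had an unadjusted p under 0.05, against 16.7%; with a background from negative control spots 0 were called, against 0.815%. The signs of the fitted changes were as in V235fs, with which this comparison shares its control arrays, but scale normalisation turned those of the second and, except for M400005955, the third set, and median centring those of the second. M400008864 stood at −0.88, −1.07, −0.34 and −0.88 on D272fs replicates 1 to 4, and its log2 change was −0.68 (SE 0.23, 95% interval −1.18 to −0.18, limma adjusted p = 0.191). D272fs replicate 3 was the highest of the group and lay inside the control range, whereas the other 3 were below it. M400008875 and M400008878 changed in the fit by −0.61 (SE 0.24) and −0.59 (SE 0.23). Without D272fs replicate 3 the median of these 3 probes was −0.74 in place of −0.61.

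In the AT-ending set D272fs replicate 3 was the lowest array of its group instead. M400008915 stood at 1.28, 1.19, 0.77 and 1.14 in D272fs, a change of −0.15 (SE 0.12, 95% interval −0.41 to 0.11, limma adjusted p = 0.532). M400005955 stood at 0.81, 0.76, 0.24 and 1.14, with a change of −0.49 (SE 0.17, limma adjusted p = 0.193). The set's median change was −0.33, against −0.02 over all probes, and −0.21 without D272fs replicate 3, while scale normalisation between arrays, which multiplies each array's ratios, turned it to 0.55. In the second set the D272fs arrays split into pairs. M400006309 was at 0.05 and 0.03 on replicates 1 and 2 and at −0.37 on both replicates 3 and 4, which is within the control range; its change was 0.19 (SE 0.12, limma adjusted p = 0.425). Scale normalisation turned the median of these 5 from 0.19 to −0.26, and median centring to −0.62. Groups without overlap were found at 0 of the 15 H3 probes and at 8.03% of all probes tested.

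The direct comparison of V235fs with D272fs called 0 H3 probes by limma, against 0.00377% of all probes tested, with 3 at an unadjusted p under 0.05, against 11.9%, and 0 with a background from negative control spots, against 0.0868%. M400008864 was lower in V235fs by a log2 difference of −0.50 (SE 0.23, 95% interval −0.995 to 0.00, limma adjusted p = 0.424). M400005955 differed by −0.43 (SE 0.18, limma adjusted p = 0.384; 0.049 under median centring), and M400008052 by −0.33 (SE 0.11, limma adjusted p = 0.303). The 5 probes of the second set differed by 0.01 to 0.06 (SE 0.11 to 0.13). The order of the group means was control, D272fs, V235fs from high to low for all 10 probes of the first and the third set. At M400008052 the step from control to D272fs was only −0.05 (SE 0.11, limma adjusted p = 0.851), and its sign changed in 4 of 33 alternatives. Scale normalisation put the median of the third set 0.55 higher in D272fs than in control. Median centring put it 0.066 higher in V235fs than in D272fs. D272fs overlapped control, and also V235fs, at every one of the 15 probes. Between V235fs and D272fs, groups without overlap were found at 7.09% of all probes tested.

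**Figure D3:**
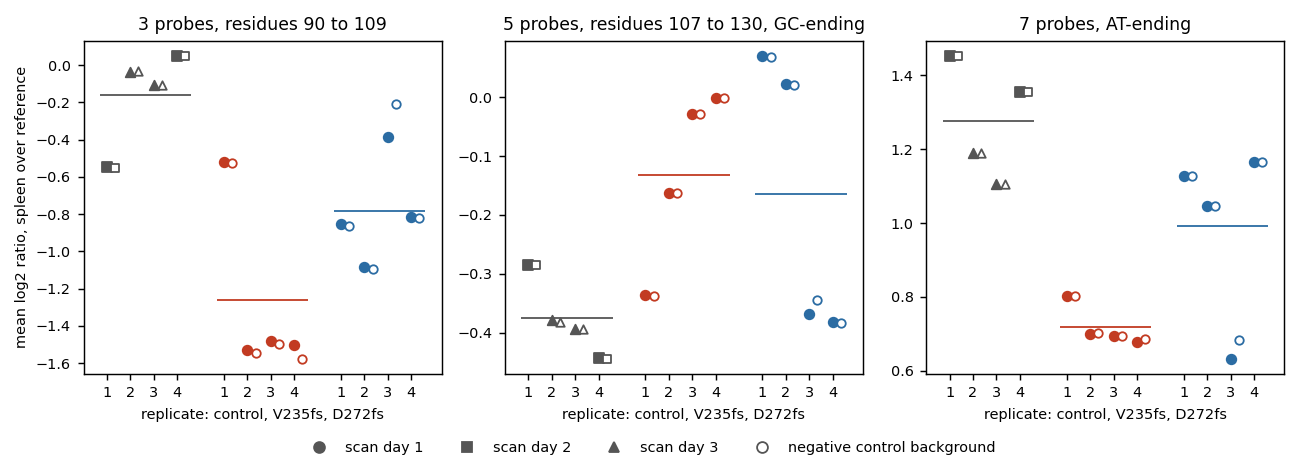
Mean log2 ratio of each set of H3 probes (vertical axis) on every array (horizontal axis, replicates 1 to 4 of control, V235fs and D272fs), with filled marks for the main background correction, open marks for a background from negative control spots, marks by scan day and a line at each group mean. V235fs replicate 1 stands apart at −0.52 in the first set, D272fs replicate 3 is high in the first set and low in the third, and, in the third set, controls of scan day 2 lie above those of scan day 3.

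The reference channel, which holds the same RNA on every array, was not still. With Cy5 alone, limma called 5 of the 15 H3 probes between V235fs and control, and 6536 of all 26502 probes tested. The normalised Cy5 signal of M400008864 was higher on V235fs than on control arrays by 0.53 (SE 0.08), while its Cy3 spleen signal was lower by −0.64 (SE 0.20). Both channels thus contributed to the change of the ratio at that probe. M400008875 and M400008878 had Cy3 changes of −0.81 and −0.83 and Cy5 changes of 0.26 and 0.23. For M400006819 the Cy5 change of 0.40 (SE 0.07) was larger than the Cy3 change of −0.17 (SE 0.11). M400005955, M400007787 and M400008077 had lower values in both channels, with Cy3 changes of −2.18, −0.79 and −0.89 and Cy5 changes of −1.26, −0.22 and −0.31. Tested with Cy3 alone, 8 of the 15 were called between V235fs and control, 7 lower and M400012463 higher, against 10.6% of all probes tested. M400008864 was not among them at a limma adjusted p of 0.0581. Between V235fs and D272fs Cy3 alone gave 2 H3 probes called lower, against 5.55% of all probes tested. Between D272fs and control it gave 0, against 0.0755%. There 3 H3 probes had an unadjusted p under 0.05, for which the share of all probes is not given here.

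**Figure D4:**
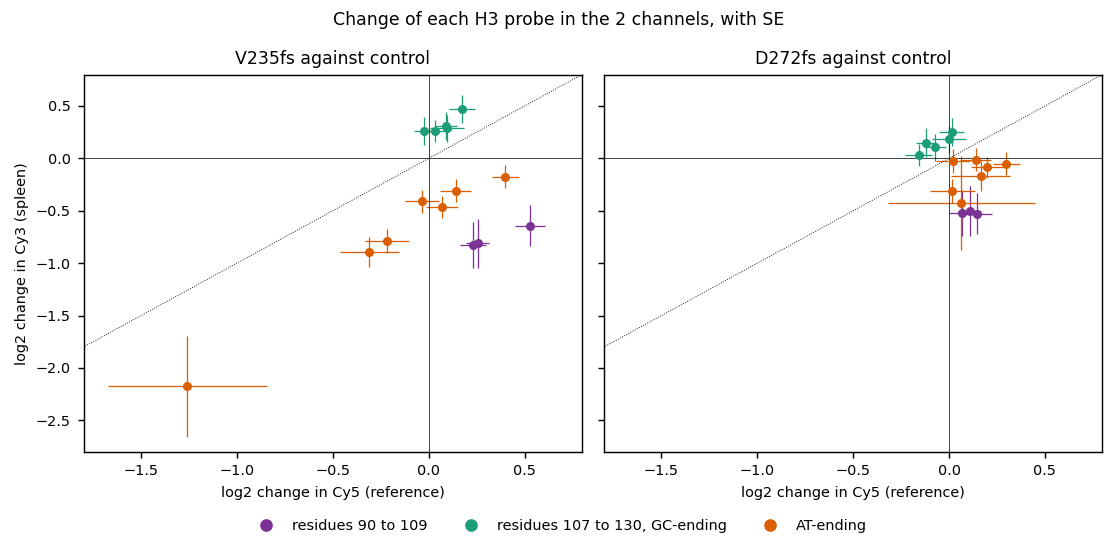
Log2 change of each H3 probe in the reference channel (Cy5, horizontal axis) and in the spleen channel (Cy3, vertical axis) between each knock-in and control, with SE; on the dotted line the ratio has no change. In V235fs the 3 probes on residues 90 to 109 are lower in Cy3 and higher in Cy5, and M400005955 is lower in both, at −2.18 and −1.26.

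Within the controls the AT-ending probes differed by scan day. In 6 of these 7 probes control replicates 1 and 4, scanned on one day, were both above replicates 2 and 3, scanned on another, with a median difference of 0.32 over the set; 27.1% of all probes tested showed that order, and 24.3% the opposite one. M400008052 was the exception, at −0.12. Control replicates 2 and 3 also shared a slide, while replicates 1 and 4 each lay on a slide of its own, so day and slide cannot be told apart here. The set's median difference between these days was −0.30 in the reference channel and 0.00 in Cy3, but M400005955 differed in both, by −0.68 in Cy5 and −0.36 in Cy3, and M400007787 by −0.21 in Cy5 and 0.12 in Cy3. No such split was seen in the first set, whose low control was replicate 1. The V235fs arrays of the third set were below the controls of either day, at 0.68 to 0.80 for the set mean (without M400005955 on replicate 3) against 1.11 and 1.19 on one day and 1.36 and 1.45 on the other.

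Over the 12 arrays the sets moved as blocks, which is given as a description because the arrays share reference, normalisation and group differences. Pearson's r between probes was 0.98 to 0.998 within the first set, 0.95 to 0.99 within the second and 0.70 to 0.996 within the third. Between the first and second sets it was −0.83 to −0.71 in all 15 pairs, and still −0.74 to −0.61 after group means were removed. The first and the third set correlated at 0.45 to 0.63, and at −0.37 to −0.08 after group means were removed. M400008052 and M400012462 encode mostly the same 15 residues, with 75.6% of the bases alike, and correlated at −0.16, whereas M400008052 and M400008077 of the third set correlated at 0.82. M400005982 and M400007787, alike at 83.3% of shared bases, differed by at most 0.04 on any array. The sets also differed in brightness: raw Cy3 signal above background was 255 to 2295 in the first set, 7258 to 35335 in the second and 499 to 145143 in the third, which bears on precision and on the loess curve rather than on RNA amount.

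Probes for the other core histones were found by the same translation. In V235fs against control all 8 H2B probes were called lower (median log2 change −0.70), as were 6 of 10 H4 probes (median −1.05) and 0 of 11 H2A probes (median −0.63, 9 at an unadjusted p under 0.05), by limma, against 0.849% of all probes tested. Over all probes, the calls in this comparison went from 225 to 50 with the slide as a random block and to 26 with the scan day. Counts for the H2B, H4 and H2A probes under these blocks are not given here. How far the probes of a family share sequence was not examined. In D272fs, where 0.0755% of all probes were called, 4 of 10 H4 probes were called lower (median −0.81; 2 with the negative control background), 0 of 8 H2B probes (median −0.20) and 0 of 11 H2A probes (median 0.31), with 1 of each at an unadjusted p under 0.05. Across the arrays H4 probes correlated with the mean of the first set of H3 at 0.73 to 0.95 (median 0.85) and with that of the third at 0.52 to 0.85 (0.77). H2B probes did so at 0.66 to 0.89 (0.72) and 0.72 to 0.94 (0.88), so H2B lay closer to the AT-ending set. Both ran against the second set, at −0.87 to −0.54 and −0.72 to −0.42. Of the 11 H2A probes, 10 were lower and 1 higher in V235fs than in control. In D272fs 10 were higher and 1 lower. They correlated at −0.77 to 0.69 (0.61) with the first set and at −0.40 to 0.83 (−0.15) with the second. With the third set they were at −0.40 to 0.44 (0.32). Each knock-in group lay on a slide of its own, and the controls were scanned on other days. Whether genotype, rather than slide or day, lowered the H2B and H4 values was therefore not tested. If genotype did, bulk tissue would still not separate fewer cells of a dividing type from less histone mRNA per cell.

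Among 22858 other probes well above background on all arrays, those most like the mean of the 11 probes not classed as other variants were M300005317 (r = 0.96), M400012970 (0.93), M200002832 (0.92), M400000570 (0.92) and M400005585 (0.92), over 12 arrays. That list mixes the 3 sets, so its median change, −0.45 in V235fs and −0.15 in D272fs, describes none of them. Ranked against each set alone, 2 of the 5 probes closest to the first set encoded histone H4 (M400008862 and M400012321, both r = 0.95). The probe closest to the second set was M200005474 (0.99). M400012838 and M400006060, which missed the residue threshold, and M400009940, with 9 identical residues, were among the 5 closest to the third set (0.97, 0.96 and 0.97).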

How the data were processed

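The deposited scanner files hold, per spot, mean intensity and median background intensity in both dyes, as Agilent Feature Extraction (version 11.5.1.1, per the file headers) wrote them, and a background-subtracted, dye-normalised log10 ratio. The authors' deposited value table held the same log10 ratios to within 0.005. Background was corrected over all spots by normexp (offset 50) in limma 3.58.1 (R 4.3.3). Arrays were then normalised by loess, to which control spots gave no weight. Control spots and outlier-marked spots (69 over the 12 arrays) were left out after these steps. Probes well above background in Cy3 on at least 4 arrays, with 2 values per group, were tested (26502): a mean per group, empirical Bayes, Benjamini-Hochberg threshold 0.05 over all of them. The fit was tested on simulated data first. No saturated H3 spot was found. Cy3 was well above background for 69.1% to 74.9% of probes per array; 12 arrays limit the precision.

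The members, sets and lists were chosen with earlier results of these data known. Every member is named; like-patterned probes are the 5 with the highest r. The H3.1 residues used as search key, and those of H4, H2A and H2B, were written from general knowledge, since no protein table was at hand. Lists of replication, chaperone and cell type marker genes, the check of spleen markers and the level of Trex1 need gene names and were not run. Alternatives covered background, normalisation, channel, filter, slide, scan day, position, replicate number, weights, variance model, the groups fitted and each array left out.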

Additional observations from a re-analysis of the deposited data

Results flagged for a closer look

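Gaps between 1 array and the other 3 of its group were looked for in 53 groups of 4 values (each H3 probe and each set mean), and 8 exceeded the limit that chance passes in about 1 of 20 groups; the probes of a set are near copies, so these are 3 patterns rather than 8. On V235fs replicate 1 the probes on residues 90 to 109 were far above the other 3 arrays: M400008864 at −0.61 against −1.55 to −1.47, M400008875 at −0.42 against −1.54 to −1.46, M400008878 at −0.52 against −1.52 to −1.48, and their mean at −0.52 against −1.53 to −1.48. On control replicate 1, M400008875 at −0.54 and M400008878 at −0.62 were far below the other controls, which lay at −0.09 to −0.00 and −0.10 to −0.02. On D272fs replicate 3, where the fitted Cy3 background was −392 against 21.9 on negative control spots, M400006819 at 0.72 and M400005982 at 0.74 were far below the other 3, at 1.19 to 1.28 and 1.16 to 1.23. With a background from negative control spots the mean of the AT-ending probes on that array was still low, at 0.68 against 1.05 to 1.17. The source of these gaps was not tested.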

How the results depend on the processing

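No called change reversed its sign under any alternative. Causes were not tested unless given. Settings that join 2 choices, apart from the negative control background without D272fs replicate 3, were added after seeing the data. The count of H3 probes called in V235fs against control, 2, is given with the share of all probes called in brackets: it was 9 without background subtraction (10.6%), with a negative control background (8.24%), with Agilent's log ratios (8.69%), the authors' table (8.66%) or only the 2 groups (3.82%); 10 with a negative control background and D272fs replicate 3 left out (6.88%); 8 with Cy3 alone (10.6%), 9 with it and a negative control background (17.9%); 4 with a robust trend (1.81%); 15 with array weights (28.8%); 1 without a filter (0.602%); and 0 with offset 0, median centring, scale normalisation, position as a fixed block, the slide or the day of scanning as a random block (also with a negative control background). Leaving out 1 array gave 0 to 10 (0.0645% to 5.29%). Replicate numbers did not pair the arrays (correlations of deviations −0.51 to 0.35). A replicate block gave 0 calls (0.0566%), with 10 H3 probes at an unadjusted p under 0.05. The share of all probes at that unadjusted p is not given here. Array weights gave 8 calls in D272fs against control (12.7%) and 7 between the knock-ins (6.7%), where Cy3 alone gave 2 (5.55%), or 4 with a negative control background (9.89%).

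Median changes moved by more than 1 SD between replicates as follows. In V235fs against control, the 11-probe list went from −0.45 to −1.05 (median centring), −0.31 (scale), −0.17 (Cy3 alone, with either background) and −0.33 (position). M400005955, classed as another variant with 1 H3.3 residue, went from −0.92 to −2.18 (Cy3 alone) and −2.20 (that with a negative control background). Median centring gave −0.34 for the second set and −1.05 for the third. In D272fs against control, the 11-probe list went from −0.15 to −1.07 (median centring), −0.26 (scale), −0.013 and −0.021 (Cy3 alone, without and with a negative control background), −0.027 (position), 0.026 (array weights), −0.043 (negative control background without D272fs replicate 3) and −0.23 to −0.042 (1 array left out); M400005955 from −0.49 to −1.11 (median centring) and −0.13 (scale); the first set from −0.61 to −1.11 (median centring); the second from 0.19 to −0.62 (median centring) and −0.26 (scale); the third from −0.33 to −1.11 (median centring), 0.55 (scale), −0.086 and −0.082 (Cy3 alone) and −0.13 (array weights). Between the knock-ins, the 11-probe list went from −0.22 to 0.076 (median centring), −0.024 (scale), −0.11 and −0.13 (Cy3 alone), −0.35 (array weights, and negative control background without D272fs replicate 3) and −0.33 to −0.17 (1 array left out); M400005955 from −0.43 to 0.049 (median centring), −1.75 and −1.81 (Cy3 alone); the first set from −0.47 to −0.041 (scale); the second from 0.036 to 0.30 (median centring) and 0.44 (scale); the third from −0.25 to 0.066 (median centring) and −0.95 (scale). Median centring moved the median of all probes to −0.15, −0.25 and 0.08 in the 3 comparisons. In V235fs against control the first set's median ran from −1.34 to −0.81 over the 33 alternatives, which is within 1 SD between replicates. That SD was wide, at 0.36, and included V235fs replicate 1. In 17 of these alternatives 0 H3 probes were called, and most of them reuse the same arrays.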
